A study of Mus musculus with 17 samples.

Results

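The 6 unedited Capture-C libraries of this mouse series were compared by cell source: 3 libraries of WT primary adult Ter119+ erythroid cells and 3 of Parental WT Hba-a1-YFP CD71+ erythroid cells, of 17 libraries in all. The Ter119+ cells came from spleens of adult phenylhydrazine-treated mice kept on a C57BL/6J background and were selected on Ter119, a surface marker of maturing red cells. The CD71+ cells were differentiated in embryoid bodies from 1 mouse embryonic stem cell line derived from E14TG2a and were selected on CD71, the transferrin receptor. That line keeps only 1 copy of the α-globin locus, with mVenus fused to Hba-a1, so its α-globin locus is modified although its label reads WT. The methods describe its CD71+ cells as resembling primitive erythroblasts, the first red cells of the embryo. The labels give 1 protocol of crosslinking and DpnII digestion for both groups. Cell source, strain, genotype, capture panel and the exclusion zones of the deposited counts all changed together between the groups and cannot be told apart. No transcripts were measured in these libraries, so the identity of the cells could not be checked against marker genes. Per the methods and legends the CD71+ libraries are independent differentiations of that 1 line and the Ter119+ libraries are biological replicates, and p-values measure the spread between these libraries.

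The rule that chose the data kept the 6 viewpoints present in both captures, paired by name. On chromosome 11 these were HS38, a fragment at the CTCF-bound upstream edge of the α-globin domain, and R1 and R2, elements of the α-globin enhancer cluster. On chromosome 7 they were the promoter fragments named Hbb-b1 and Hbb-b2, and on chromosome 14 the promoter of Slc25a37, the mitoferrin that carries iron into mitochondria. The file names of the β-globin viewpoints cross those of the annotation: the viewpoint called Hbb-b1 (mm9, chr7:110961967-110962817) overlies the gene annotated Hbb-b2, and the viewpoint called Hbb-b2 (chr7:110975976-110976456) overlies the gene annotated Hbb-b1. Viewpoints are given here by their deposited names and gene windows by the annotated ones.

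Capture-C counts the DNA ligations between 1 chosen fragment, the viewpoint, and every other fragment, so a high count marks sequence that lies often in contact with the viewpoint. At the β-globin locus the adult genes Hbb-b1 and Hbb-b2, the embryonic genes Hbb-bh1 and Hbb-y, and the locus control region, a distal enhancer cluster upstream of Hbb-y, lie in a row. Embryonic red cells use the embryonic genes and adult red cells the adult genes, both with the same locus control region. At the α-globin locus an enhancer cluster within and beside Nprl3 serves the embryonic gene Hba-x and the adult genes Hba-a1 and Hba-a2, all inside a self-interacting sub-TAD nested in a larger TAD.

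Values are unique interactions scaled to 100,000 interactions in cis outside the exclusion zones of that viewpoint and library. Cis totals behind them ran from 6638 to 23648 in Ter119+ and from 7256 to 32095 in CD71+ libraries. Replicate pairs differed by 1.59 to 2.26 times the sampling noise (chi-square per degree of freedom), so none was counted as a repeat of another. Differences are given as log2 of CD71+ over Ter119+ with the standard error of edgeR's quasi-likelihood fit, and adjusted p-values are Benjamini-Hochberg values of that fit. Over all viewpoints 29 of the 55 regions tested were called at a threshold of 0.05 (52.7%), of which 19 were higher and 10 lower in CD71+ cells. At this background a region that passes is not unusual, and the size and place of each difference carry the description. An exact permutation test of 3 libraries against 3 cannot go below p = 0.1, and it gave 0.1 wherever the groups did not overlap.

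The largest regional differences lay at the β-globin locus, where the adult promoters had more interactions with the locus control region than with the embryonic genes in Ter119+ cells and fewer in CD71+ cells. From Hbb-b2 the locus control region (chr7:111003150-111036940) held 20985, 19954 and 20115 interactions per 100,000 in the Ter119+ libraries and 5283, 4749 and 5624 in the CD71+ libraries. Every Ter119+ library stood far above every CD71+ library. The means were 20351 ± 555 and 5219 ± 441 (SD, n = 3), a log2 difference of -1.96 ± 0.07 (edgeR adjusted p = 4.05e-09), or 3.9-fold more in Ter119+. From Hbb-b1 the same region held 14706, 15178 and 14148 against 5690, 5311 and 5477, again without overlap, with a log2 difference of -1.42 ± 0.05 (edgeR adjusted p = 6.91e-09).

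**Figure D1:**
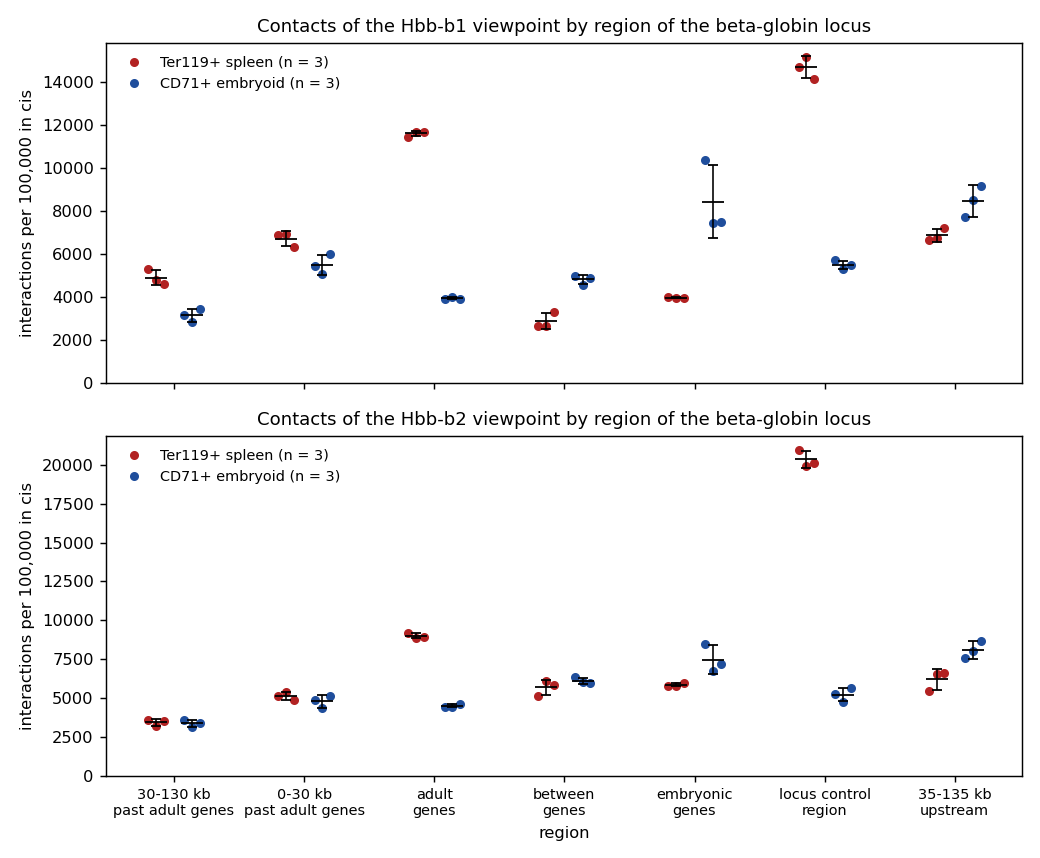
Interactions per 100,000 in cis (y axis) of the Hbb-b1 and Hbb-b2 viewpoints with each region of the β-globin locus (x axis). Each point is 1 library, horizontal bars are means and error bars SD (n = 3); the locus control region and the adult genes were higher in every Ter119+ library, and the embryonic genes in every CD71+ library.

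The embryonic genes (chr7:110988558-111003149) went the other way. From Hbb-b1 they held 3975, 3928 and 3946 interactions per 100,000 in Ter119+ and 10372, 7420 and 7462 in CD71+ libraries, a log2 difference of 1.08 ± 0.13 (edgeR adjusted p = 9.05e-05). The spread was wider in CD71+, with replicate 1 above the other 2. From Hbb-b2 they held 5800, 5786 and 5953 against 8485, 6712 and 7197, a smaller difference of 0.35 ± 0.09 (edgeR adjusted p = 0.00713). The rise was not shared by most of the region. Of its 31 tested fragments 11 were higher and 2 lower in CD71+ from Hbb-b1, with a median log2 difference of 0.47, and 6 were higher and 8 lower from Hbb-b2, with a median of -0.20. The ratio of locus control region to embryonic gene interactions, chosen after the values were seen, needs no scaling between libraries. From Hbb-b1 it was 3.7, 3.86 and 3.59 in Ter119+ libraries and 0.549, 0.716 and 0.734 in CD71+ libraries. From Hbb-b2 it was 3.62, 3.45 and 3.38 against 0.623, 0.708 and 0.781 (exact two-sided permutation p = 0.1 for each, the smallest possible).

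Within the embryonic genes the difference was concentrated in Hbb-bh1, the βh1-globin gene of primitive red cells. Its window, the gene with 1 kb on each side, had counts of 80, 71 and 108 in Ter119+ and 656, 793 and 855 in CD71+ libraries from Hbb-b1. The scaled means were 906 ± 104 and 4407 ± 1080, a log2 difference of 2.27 ± 0.14 (edgeR adjusted p = 7.89e-30). From Hbb-b2 the window counted 77, 111 and 118 against 761, 939 and 1119, a log2 difference of 1.54 ± 0.13 (edgeR adjusted p = 9.96e-22). Both viewpoints showed all 3 CD71+ libraries above all 3 Ter119+ libraries. Across all viewpoints 39 of the 83 gene windows tested were called, 31 higher and 8 lower (47.0%).

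Hbb-y, the εy-globin gene that lies next to the locus control region, differed less. From Hbb-b1 its window held 1060 ± 67.4 interactions per 100,000 in Ter119+ and 1712 ± 570 in CD71+, a log2 difference of 0.67 ± 0.18 (edgeR adjusted p = 0.00128). From Hbb-b2 the values were 1493 ± 119 and 1370 ± 372, the groups overlapped, and the difference of -0.14 ± 0.17 did not pass (edgeR adjusted p = 0.556). The difference between the Hbb-bh1 and Hbb-y windows was not tested.

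The single DpnII fragments with the smallest p for a rise lay inside the Hbb-bh1 gene. The fragment chr7:110990422-110991220, which covers exon 2 and coding sequence of Hbb-bh1, had raw counts, not yet scaled for depth, of 13, 16 and 21 in Ter119+ and 379, 313 and 340 in CD71+ libraries from Hbb-b1. Its log2 difference was 3.56 ± 0.31 (edgeR adjusted p = 1.88e-08), and from Hbb-b2 it was 2.69 ± 0.21 (edgeR adjusted p = 3.02e-17). The next fragment, chr7:110991221-110991652, covers exons 1 and 2 and had counts of 11, 9 and 17 against 181, 245 and 251 from Hbb-b1, with log2 differences of 3.29 ± 0.25 from Hbb-b1 and 3.10 ± 0.21 from Hbb-b2. The fragment chr7:110988558-110989412, over exons of the annotated gene Hbb-bh2, was also higher, by 2.06 ± 0.25 and 1.69 ± 0.24. Among single fragments 121 of 319 tested from Hbb-b1 were called (37.9%) and 131 of 345 from Hbb-b2 (38.0%).

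The promoters of the 2 embryonic genes are shown because their fragments were not called higher in CD71+ from either viewpoint, unlike the pair of Hbb-bh1 fragments just described. Both are the 150 bases before the annotated start on the minus strand of mm9, written 5′ to 3′, outside any annotated exon, searched on both strands for CACCC (the core of the KLF1 motif), then for CCAAT (that of NF-Y) and then for GATAA (that of GATA factors). Matches are in capitals.
Hbb-bh1 promoter, chr7:110991679-110991828: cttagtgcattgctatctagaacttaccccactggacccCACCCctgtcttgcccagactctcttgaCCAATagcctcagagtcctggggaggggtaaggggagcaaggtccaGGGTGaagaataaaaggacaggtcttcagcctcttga
Hbb-y promoter, chr7:111001755-111001904: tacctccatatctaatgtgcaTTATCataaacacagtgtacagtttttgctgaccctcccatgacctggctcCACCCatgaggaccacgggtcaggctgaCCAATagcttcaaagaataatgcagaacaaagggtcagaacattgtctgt
The Hbb-bh1 promoter held CACCC at 2 places, CCAAT at 1 and no GATAA, and the Hbb-y promoter held each at 1 place. Of 7045 gene starts on the 3 chromosomes, 2468 held CACCC in the same window, 24.2% held CCAAT and 16.3% held GATAA. The fragment with the Hbb-bh1 promoter, chr7:110991653-110992180, had counts of 11, 13 and 15 in Ter119+ and 25, 42 and 41 in CD71+ libraries from Hbb-b1, and its log2 difference of 0.53 did not pass (edgeR adjusted p = 0.136). From Hbb-b2 it was -0.20 (edgeR adjusted p = 0.649). The fragment with the Hbb-y promoter, chr7:111001695-111002451, gave -0.34 from Hbb-b1 (edgeR adjusted p = 0.353) and -0.78 from Hbb-b2 (edgeR adjusted p = 0.0192). Fragments over the Hbb-y gene had no single direction. The fragment chr7:111001278-111001694, beside the promoter fragment, gave 1.03 ± 0.23 from Hbb-b1 (edgeR adjusted p = 0.00125), without overlap between the groups. From Hbb-b2 its difference of 0.49 did not pass (edgeR adjusted p = 0.157). The fragment chr7:111001027-111001277 gave 2.09 and 1.08 (edgeR adjusted p = 0.000313 and 0.00417). CD71+ replicate 1 stood far above the other 2 in it, with 1069 against 392 and 336 interactions per 100,000 from Hbb-b1, and from Hbb-b2 the groups overlapped. The next fragment into the gene, chr7:111000286-111001026, gave -0.12 and -0.53, neither of which passed, and chr7:110999930-111000285, across the gene's 3′ end, gave -0.29, which did not pass, and -0.99 (edgeR adjusted p = 0.00589). No test compared promoters with gene bodies.

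**Figure D2:**
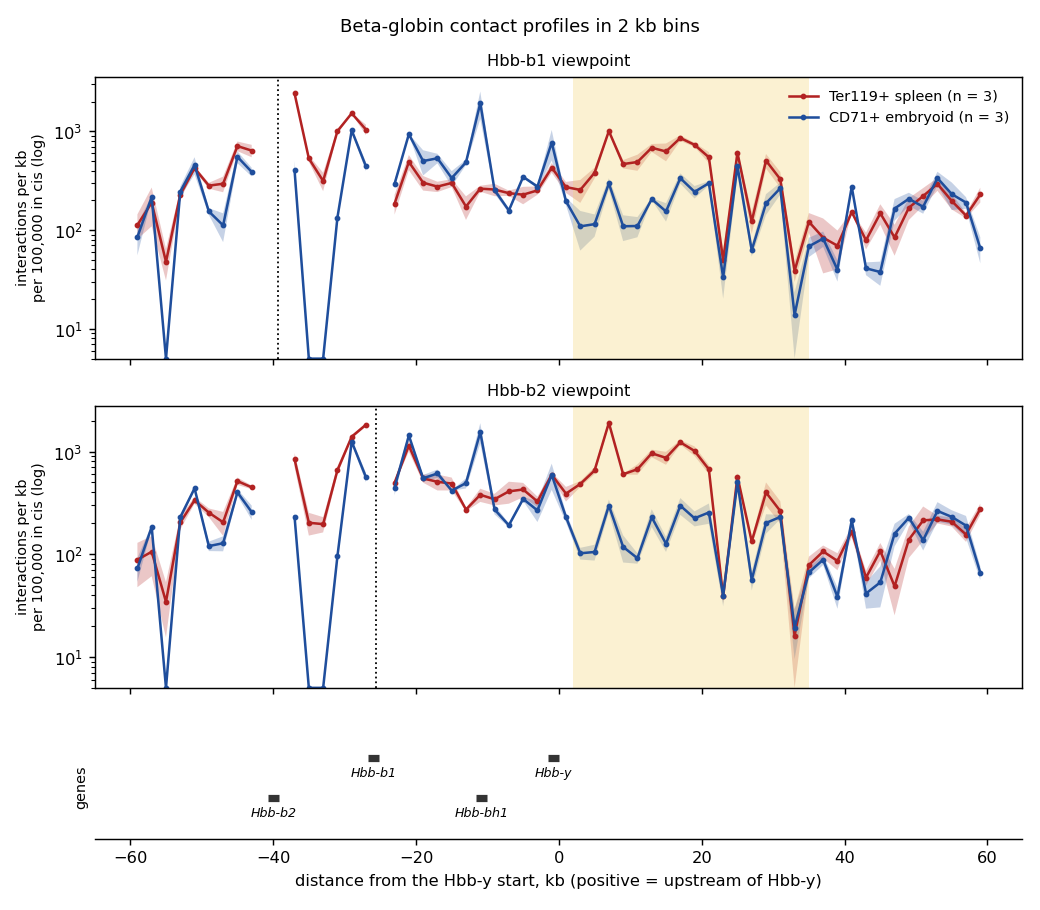
Interactions per kb and per 100,000 in cis (log axis) of the Hbb-b1 and Hbb-b2 viewpoints in 2 kb bins by distance from the Hbb-y start, as group means (lines) with SD (shading, n = 3). The shaded block is the locus control region, dotted lines are viewpoints, gaps are exclusion zones and bins under 5 are drawn at the lower edge; Ter119+ lies above CD71+ from 2 to 22 kb upstream of Hbb-y and CD71+ lies above Ter119+ at Hbb-bh1.

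The lower contact of CD71+ with the locus control region was uneven along it. From Hbb-b2 the stretch 2 to 8 kb upstream of Hbb-y held 5.92 times as many interactions in Ter119+ as in CD71+, the stretch from 8 to 15 kb 5.43 times, that from 15 to 22 kb 3.96 times and that from 22 to 35 kb 1.41 times. From Hbb-b1 the same stretches gave 3.09, 3.96, 2.56 and 1.69. Every stretch was without overlap between groups from both viewpoints (exact two-sided permutation p = 0.1 each). Of the fragments tested in the region, 49 of 68 from Hbb-b2 and 40 of 65 from Hbb-b1 were lower in CD71+, with medians of -1.88 and -1.36. The named fragments were chr7:111009074-111009377, 7.3 kb upstream of Hbb-y, with counts of 51, 43 and 80 against 12, 17 and 17 from Hbb-b2, and chr7:111019507-111020366, 17.8 kb upstream, with 52, 46 and 53 against 6, 9 and 19. Their log2 differences were -3.59 ± 0.26 and -3.86 ± 0.29 (edgeR adjusted p = 1.79e-18 and 7.62e-18). Both are intergenic.

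The fragment of the locus control region with the most matches to TGAGTCA, the core letters of the motif bound by NF-E2 and AP-1 proteins, is shown with the matches in capitals (plus strand of mm9, chosen after its values were seen).
Locus control region fragment, chr7:111009552-111009747: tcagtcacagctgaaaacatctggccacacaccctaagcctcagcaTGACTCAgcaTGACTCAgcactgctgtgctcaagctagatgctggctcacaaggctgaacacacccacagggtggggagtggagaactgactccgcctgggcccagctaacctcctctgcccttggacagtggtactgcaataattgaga
It is intergenic, 7.8 kb upstream of Hbb-y, and 196 bases long. From Hbb-b2 it had counts of 52, 88 and 71 in Ter119+ and 37, 37 and 49 in CD71+ libraries, a log2 difference of -2.46 ± 0.21. A window of this length on chromosome 7 held TGAGTCA on either strand in 3.08% of cases. Of the 10 tested fragments of the region with these letters 7 were lower in CD71+ (median log2 difference -2.12), and of the 58 without them 42 were lower (median -1.82).

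The region of the adult genes (chr7:110961283-110979067) held more interactions in Ter119+ cells. Both viewpoints lie in it, so its sums take in sequence beside each viewpoint as well as contacts between the genes. From Hbb-b1 the region held 11457, 11683 and 11663 interactions per 100,000 in Ter119+ and 3914, 4000 and 3910 in CD71+ libraries. From Hbb-b2 it held 9174, 8873 and 8946 against 4448, 4416 and 4602. The log2 differences were -1.56 ± 0.05 and -1.002 ± 0.05 (edgeR adjusted p = 4.05e-09 and 1.46e-07). This region includes a run of 18 neighbouring fragments over 6.33 kb (chr7:110964839-110971167), between the adult genes, that counted 514, 554 and 722 in Ter119+ and 0, 12 and 12 in CD71+ libraries over both viewpoints. Of the fragments tested in the region, 24 of 28 from Hbb-b1 and 11 of 16 from Hbb-b2 were lower in CD71+, with medians of -6.38 and -1.14. Without fragments that were under 5% of the other group's level the differences were -0.88 and -0.65, still called. That filter needs at least 20 counts in the other group and keeps sparser fragments. It therefore cannot show how much of the differences rests on fragments missing from CD71+. The part of strain, reporter line or read mapping in that run was not tested. The annotated Hbb-b1 window holds the gene's flank outside the exclusion zone. From Hbb-b2, the viewpoint over that same gene, it counted 91, 98 and 121 in Ter119+ and 57, 106 and 149 in CD71+ libraries. The scaled means were 1292 ± 69.4 and 386 ± 69.7, a log2 difference of -1.72 ± 0.20 (edgeR adjusted p = 3.78e-13). This value is of sequence beside the viewpoint, not of contact between the genes. With near-zero fragments left out the window gave -1.73 from Hbb-b2 and -1.19 from Hbb-b1, the viewpoint over the other adult gene.

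The 2 flanks of the gene cluster differed by less than the locus control region did. The stretch upstream of the locus control region (chr7:111036941-111135891) held 6645, 6713 and 7192 interactions per 100,000 in Ter119+ and 7716, 8493 and 9169 in CD71+ from Hbb-b1, a log2 difference of 0.31 ± 0.07 (edgeR adjusted p = 0.00585), and 0.38 ± 0.08 from Hbb-b2 (edgeR adjusted p = 0.00409). The 30 to 130 kb on the far side of the adult genes were lower in CD71+ from Hbb-b1, at 4885 ± 346 against 3136 ± 292 (-0.64 ± 0.10, edgeR adjusted p = 0.000399). From Hbb-b2 they were 3422 ± 216 against 3355 ± 238 (-0.03 ± 0.09, edgeR adjusted p = 0.818). Both flanks hold olfactory receptor genes, a family of odorant receptors not used by red cells. Of 18 olfactory receptor gene windows, 5 were higher and 2 lower in CD71+ from Hbb-b1, and 8 were higher and 2 lower from Hbb-b2. Over all gene windows and viewpoints 47.0% were called, so the number called in this family was not unusual. Olfr631, Olfr633, Olfr634-ps1, Olfr67 and Olfr68 were higher from both viewpoints, Olfr633 by 1.55 ± 0.28 and 1.34 ± 0.30. Olfr66, which lies inside the locus control region as defined here, was lower from both, at -1.25 ± 0.21 and -1.04 ± 0.22. Olfr260-ps1, also lower from both, rested on 0 to 8 counts per library, and its Hbb-b2 call held under 1 of 4 scalings.

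At the α-globin locus the profiles of the groups were closer in shape. Pearson's r of log2(value + 1) in 5 kb bins within 250 kb of the viewpoint, between a Ter119+ and a CD71+ library, was 0.862 to 0.949 for HS38, 0.853 to 0.910 for R1 and 0.866 to 0.925 for R2, against 0.657 to 0.747 for Hbb-b1 and 0.654 to 0.743 for Hbb-b2. Within a group it was 0.866 or more for the α-globin viewpoints and 0.839 or more for the β-globin viewpoints. These are descriptions over about 100 bins that share libraries and the decay with distance. Of 36 α-globin regions 13 were higher and 4 lower in CD71+, 17 called in all. Over all viewpoints 29 of 55 regions were called (52.7%), so the number called at the α-globin locus was not unusual. Interactions over 1 Mb away made up less of the cis total in CD71+ cells, and scaling to the total within 1 Mb instead shifted the log2 differences by -0.21 from HS38, -0.22 from R1 and -0.17 from R2.

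Contacts of the enhancers with the α-globin genes overlapped between the groups. From R2 the genes to the sub-TAD end (from Hba-a1 past Hba-a2) held 12191, 11033 and 11189 interactions per 100,000 in Ter119+ and 11625, 10805 and 12351 in CD71+ libraries, overlapping ranges with a log2 difference of 0.02 ± 0.06 (edgeR adjusted p = 0.842), which turned to -0.16 when scaled to the total within 1 Mb. From R1 they held 14948, 13787 and 13715 against 14094, 14086 and 18091, a difference of 0.13 ± 0.09 (edgeR adjusted p = 0.287). From HS38 the same stretch was higher in CD71+, with 8211, 9120 and 8079 against 12900, 11745 and 13412, no overlap and a log2 difference of 0.58 ± 0.07 (edgeR adjusted p = 9.05e-05), called under all 4 scalings. Of the 37 fragments tested in it from HS38, 11 were higher and 1 was lower. The intergenic fragments chr11:32184706-32184781 and chr11:32185214-32185292, just past Hba-a1, had counts of 15, 17 and 10 against 45, 35 and 64 and of 12, 11 and 16 against 24, 49 and 41, log2 differences of 2.22 ± 0.35 and 1.93 ± 0.31. Whether HS38 differed from R1 and R2 in this was not tested.

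From HS38, 7 of 12 gene windows were higher in CD71+, where 39 of 83 were called over all viewpoints (47.0%), 31 of them higher. Of those from HS38, the windows of Hba-a1, Hbq1b and Rhbdf1 were called under all 4 scalings. Hba-a1, an adult α-globin gene, counted 168, 211 and 245 against 177, 321 and 350, scaled means of 1278 ± 60.7 and 2303 ± 199 and a log2 difference of 0.84 ± 0.16 (edgeR adjusted p = 3.59e-06). Hbq1b, a θ-globin gene beside it, gave 0.60 ± 0.14, Hba-a2 0.44 ± 0.17 and Hbq1a, the other θ-globin gene, 0.41 ± 0.18, the last 2 called under 1 scaling. On the other side Rhbdf1, which encodes an inactive rhomboid protein, gave 0.37 ± 0.07. From R2 the window of Hba-a2, the adult gene farther from the enhancers, was lower, at 1995 ± 137 against 1463 ± 198 (-0.44 ± 0.14, edgeR adjusted p = 0.00536). Hba-a1 and Hba-a2 are near-identical copies, and the CD71+ line carries mVenus at Hba-a1, so the count of reads placed on each is uncertain.

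The embryonic gene Hba-x, which encodes ζ-globin, was contacted more by both enhancers in CD71+ cells. From R1 its window counted 300, 362 and 428 in Ter119+ and 228, 474 and 511 in CD71+ libraries, scaled means of 2329 ± 36.5 and 3309 ± 227, with no overlap after scaling. The log2 difference was 0.51 ± 0.13 (edgeR adjusted p = 0.000532). From R2 the scaled means were 2628 ± 192 and 3573 ± 513, a difference of 0.44 ± 0.10 (edgeR adjusted p = 0.000134), and both calls held under all 4 scalings. From HS38 the window was level, at 1433 ± 170 against 1430 ± 175. The fragment behind the R1 difference with the smallest p is printed because it lies wholly in coding sequence of Hba-x exon 2 (plus strand of mm9).
Hba-x fragment, chr11:32177661-32177757: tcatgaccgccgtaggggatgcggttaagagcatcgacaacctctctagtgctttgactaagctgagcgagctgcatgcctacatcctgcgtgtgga
From R1 it had counts of 15, 22 and 25 in Ter119+ and 28, 68 and 58 in CD71+ libraries, a log2 difference of 1.67 ± 0.24 (edgeR adjusted p = 0.000802). Of the single fragments tested from R1, 11 of 295 were called (3.73%), from R2 34 of 286 (11.9%) and from HS38 27 of 364 (7.42%).

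**Figure D3:**
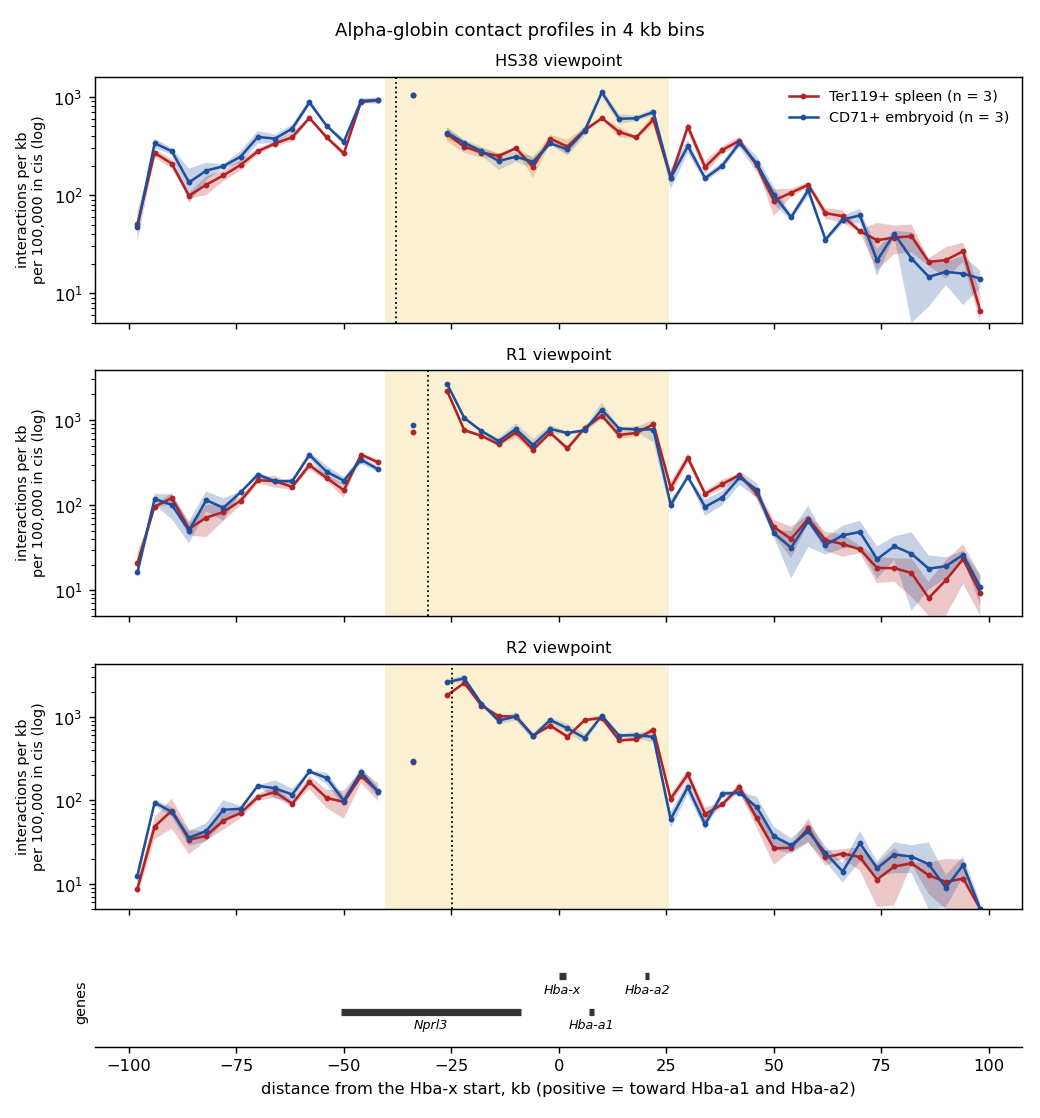
Interactions per kb and per 100,000 in cis (log axis) of the HS38, R1 and R2 viewpoints in 4 kb bins by distance from the Hba-x start, as group means (lines) with SD (shading, n = 3). The shaded block is the sub-TAD, dotted lines are viewpoints and gaps are exclusion zones. In both groups the profiles drop at the right edge of the block, least from HS38 in Ter119+, and the CD71+ line lies below the Ter119+ line at 30 kb.

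The downstream edge of the sub-TAD was steeper in CD71+ cells. The log2 ratio of interactions per kb in the 15 kb inside the edge to the 15 kb outside it was 0.322, 0.604 and 0.481 in Ter119+ and 1.54, 1.51 and 1.44 in CD71+ libraries from HS38. From R1 it was 1.49, 1.67 and 1.62 against 2.29, 2.22 and 2.67, and from R2 2.30, 2.11 and 1.93 against 2.35, 2.496 and 2.56. The groups did not overlap from any of the 3 viewpoints (exact two-sided permutation p = 0.1 each, the smallest possible). In windows of 20 kb they overlapped from R2, where the difference was 0.18 (exact two-sided permutation p = 0.3), and stayed apart from HS38 and R1. In windows of 10 kb the HS38 ratios were 0.036, 0.350 and 0.263 in Ter119+ and 1.22, 1.26 and 1.14 in CD71+ libraries, so the Ter119+ drop was slight there. These ratios lie within a library and need no scaling. The mean difference was 1.03 from HS38, 0.80 from R1 and 0.36 from R2. At the upstream edge the difference was 0.17 from R1 and 0.14 from R2, with overlapping groups (exact permutation p = 0.3 and 0.4).

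Beyond that edge the near flank was lower in CD71+ from HS38 and R1, and sequence beyond the larger TAD differed by viewpoint and distance. The flank up to the end of the larger TAD (chr11:32203108-32244878) was lower in CD71+ from HS38, at 8521, 8113 and 8068 against 6340, 6225 and 6949 (-0.34 ± 0.06, edgeR adjusted p = 0.00122), and from R1, at 5936, 5096 and 5334 against 4616, 4199 and 3832 (-0.38 ± 0.09, edgeR adjusted p = 0.00585). From R2 it was 3064 ± 170 against 2756 ± 153 (-0.16 ± 0.08, edgeR adjusted p = 0.119). The window of the CTCF sites HS+44 and HS+48 within that flank did not pass from any α-globin viewpoint, with log2 differences of -0.04 ± 0.08, -0.09 ± 0.13 and 0.12 ± 0.13 from HS38, R1 and R2. The window of HS+65/66, at the end of the flank, was lower in CD71+ from HS38, with 519, 623 and 667 interactions per 100,000 against 441, 414 and 458, no overlap and a log2 difference of -0.47 ± 0.16 (edgeR adjusted p = 0.03). That call held under all 4 scalings, and the differences of 0.05 from R1 and -0.19 from R2 did not pass. Its fragment chr11:32238687-32239517, which overlaps no annotated gene, gave -2.29 ± 0.65 from HS38 (edgeR adjusted p = 0.0323) on counts of 12, 7 and 15 against 2, 1 and 2. The next 85 kb (chr11:32244879-32329896) were lower in CD71+ from HS38, with a log2 difference of -0.30 ± 0.11 (edgeR adjusted p = 0.0479), under all 4 scalings. From R1 they were higher by 0.46 ± 0.17 (edgeR adjusted p = 0.0477), a call under 1 scaling with overlapping groups, and from R2 the difference of 0.42 ± 0.19 did not pass. The 249 kb farther downstream (chr11:32329897-32579214) were higher in CD71+ from HS38, R1 and R2, by 0.37 ± 0.10, 0.76 ± 0.12 and 0.93 ± 0.12 (edgeR adjusted p = 0.00806, 0.000434 and 0.00014), the HS38 call under 1 scaling and the other 2 under all 4. For R2 the values were 1314, 1278 and 1286 per 100,000 in Ter119+ and 2632, 2681 and 2075 in CD71+ libraries. Ubtd2, a ubiquitin-domain gene in that stretch, gave 0.96 ± 0.20 from R2 (edgeR adjusted p = 3.29e-05) and 0.50 ± 0.20 from R1 (edgeR adjusted p = 0.0363), the latter under 1 scaling with overlapping groups, and its HS38 difference of 0.11 ± 0.19 did not pass.

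Upstream of the sub-TAD CD71+ values were higher too. The 250 kb upstream of the TAD gave 0.41 ± 0.07 from HS38, 0.40 ± 0.13 from R1 and 0.63 ± 0.13 from R2 (edgeR adjusted p = 0.0012, 0.0235 and 0.00365), the R1 call under 2 of the 4 scalings and the others under all 4. The TAD upstream of the sub-TAD gave 0.29 ± 0.04 from HS38 and 0.31 ± 0.07 from R2, and its R1 difference of 0.15 ± 0.06 did not pass. Both calls were lost under 1 scaling, where the differences were 0.07 and 0.14. The enhancer cluster was higher from R1, at 14864 ± 674 against 17624 ± 814 (0.25 ± 0.05, edgeR adjusted p = 0.00333), which fell to 0.03 and lost its call when scaled to the total within 1 Mb, and by 0.11 ± 0.04 from R2, a direction that turned to -0.06 when scaled to the total within 1 Mb. At the CTCF-bound upstream edge the fragment chr11:32135980-32136424, in an intron of Nprl3, was lower in CD71+ from R1, with counts of 51, 46 and 56 against 11, 8 and 22 (-1.52 ± 0.32, edgeR adjusted p = 0.0159), and from HS38, with 91, 127 and 153 against 41, 74 and 63 (-0.65 ± 0.16, edgeR adjusted p = 0.0197).

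Of the fragments called from R2, 23 were higher and 11 lower in CD71+. The named higher fragments, chr11:32149928-32149974, chr11:32148396-32148902 and chr11:32149641-32149927, lay in Nprl3 1.5, 2.8 and 1.7 kb from the viewpoint. Their log2 differences were 0.94 ± 0.17, 0.95 ± 0.18 and 0.59 ± 0.11 (edgeR adjusted p = 4.99e-06, 7.16e-06 and 1.27e-05). Among fragments lower in CD71+ from R2, the one with the smallest p lay between Hba-x and Hba-a1. The fragment chr11:32182317-32182444, intergenic, had counts of 69, 62 and 98 in Ter119+ and 16, 15 and 15 in CD71+ libraries, a log2 difference of -2.20 ± 0.28 (edgeR adjusted p = 4.11e-12). It and its neighbour, which gave -1.02 ± 0.22, adjoin the Hba-1 viewpoint that only the Ter119+ panel captured, and the part of that capture in their counts was not tested.

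The Slc25a37 promoter, the viewpoint outside the globin loci, had 1 of its 5 regions called, against 29 of 55 over all viewpoints. Its profile was not level throughout, and its class from 250 kb to 1 Mb differed by 0.95 ± 0.07. Its r between a Ter119+ and a CD71+ library, in 5 kb bins as above, was 0.835 to 0.908. Its gene body held 19744, 19520 and 19454 interactions per 100,000 in Ter119+ and 19787, 19190 and 19454 in CD71+ libraries, a log2 difference of -0.01 ± 0.04 (edgeR adjusted p = 0.864). The 50 kb upstream held 30175, 29900 and 31722 against 28361, 26964 and 29804 (-0.11 ± 0.05, edgeR adjusted p = 0.0681), and the next 200 kb were higher in CD71+ by 0.18 ± 0.06 (edgeR adjusted p = 0.0256), a call under 2 of the 4 scalings. Of the 5 gene windows around it only that of Loxl2, a lysyl oxidase gene, was called, at -0.41 ± 0.17 (edgeR adjusted p = 0.042) with overlapping groups and under 2 scalings.

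Single fragments moved both ways in the gene body and in the 50 kb upstream. In the gene body 4 of 95 tested were higher and 12 lower in CD71+, and in the 50 kb upstream 7 of 118 were higher and 20 lower. Of the fragments tested from Slc25a37 47 of 274 were called (17.2%). The intergenic fragments chr14:69912964-69913477 and chr14:69913478-69915016, 9.8 and 10.3 kb upstream of the start, were higher in CD71+. The first had counts of 29, 41 and 57 in Ter119+ and 141, 300 and 253 in CD71+ libraries, a log2 difference of 1.44 ± 0.15 (edgeR adjusted p = 5.68e-09). The second had 24, 24 and 35 against 133, 288 and 220, a difference of 1.93 ± 0.17 (edgeR adjusted p = 8.24e-11). An intronic fragment, chr14:69899250-69900081, was higher by 1.02 ± 0.13. Farther out, between 30 and 40 kb upstream, 9 of 28 tested fragments were lower and 1 was higher in CD71+. The intergenic fragment chr14:69937333-69937682, 34.2 kb upstream, had counts of 26, 38 and 63 against 15, 22 and 28, a difference of -1.94 ± 0.27 (edgeR adjusted p = 1.53e-06). Fragments chr14:69907220-69907550, over exon 3 of D930020E02Rik, and chr14:69934535-69934598 counted 47, 62 and 93 and 15, 12 and 24 in Ter119+ libraries and were at or near 0 in CD71+ libraries, and are listed among the near-zero fragments below.

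**Figure D4:**
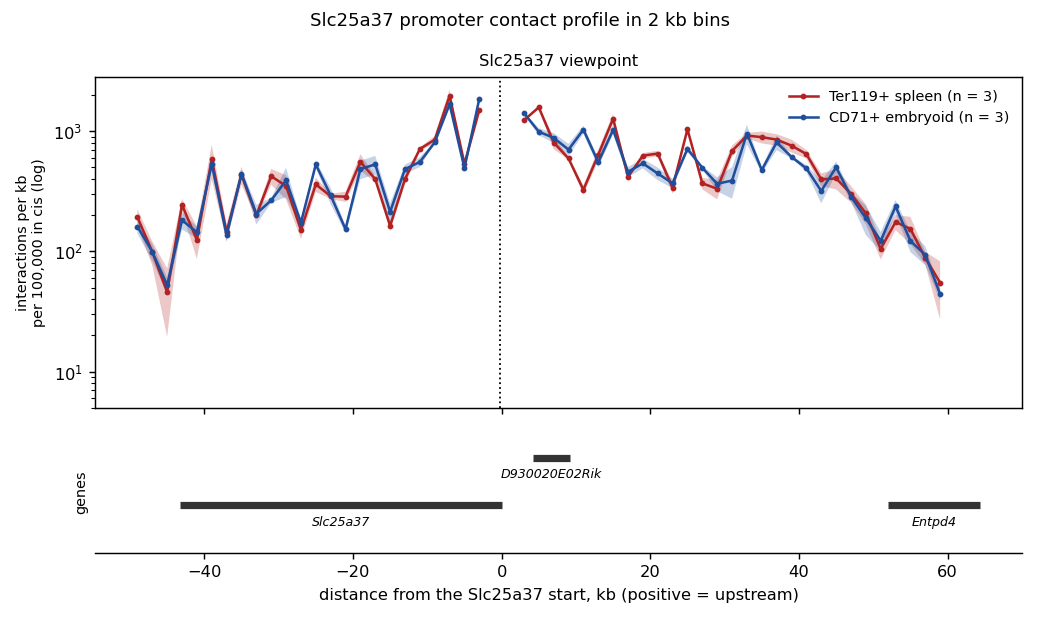
Interactions per kb and per 100,000 in cis (log axis) of the Slc25a37 viewpoint in 2 kb bins by distance from the gene start (positive is upstream), as group means (lines) with SD (shading, n = 3). The dotted line is the viewpoint and the gap its exclusion zone; the lines run together over the gene body, CD71+ is higher at 11 kb upstream and Ter119+ is higher from 35 to 43 kb upstream.

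By distance, 22 of 30 classes were called, 15 higher and 7 lower in CD71+ (73.3%). The class from 250 kb to 1 Mb was higher in CD71+ from each of the 6 viewpoints, by 0.49 ± 0.05, 0.59 ± 0.09 and 0.55 ± 0.07 from HS38, R1 and R2, by 1.94 ± 0.10 and 2.02 ± 0.09 from Hbb-b1 and Hbb-b2, and by 0.95 ± 0.07 from Slc25a37. From Hbb-b2 the values were 3450, 2996 and 3484 per 100,000 in Ter119+ and 14046, 14180 and 12123 in CD71+ libraries. In that span lie most of the 64 chromosome 7 fragments within 1 Mb that were near 0 in Ter119+. Without near-zero fragments the β-globin differences were 1.79 and 1.89. That filter needs at least 20 counts in the other group and keeps sparser fragments, even those at 0 in Ter119+. It therefore cannot show how much of the difference rests on fragments missing from Ter119+. Interactions over 1 Mb away were lower in CD71+ from HS38, R1 and R2, at 35.01%, 35.98% and 35.07% of the cis total in Ter119+ against 24.6%, 25.6% and 26.8%, and were higher from Hbb-b2, at 39.58% against 43.95%.

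**Figure D5:**
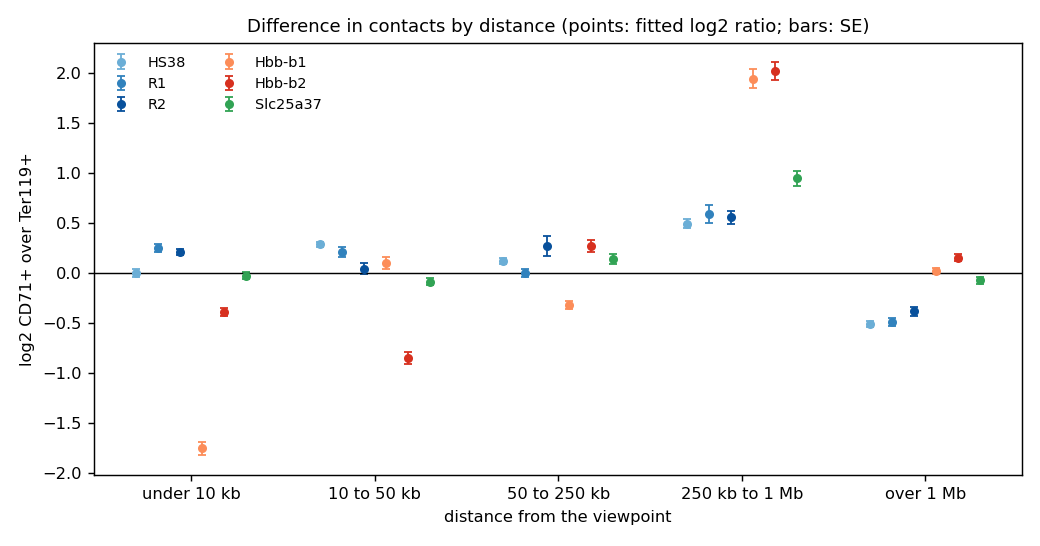
Log2 of CD71+ over Ter119+ interactions (y axis) by distance class from the viewpoint (x axis), 1 point for each viewpoint, with bars of 1 standard error of the edgeR fit. All 6 points lie above 0 from 250 kb to 1 Mb, and the β-globin points are near 2 there.

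The share of interactions in cis, outside the exclusion zones, was higher in CD71+ by 6.52 to 10.4 percentage points, without overlap from any viewpoint (exact two-sided permutation p = 0.1 each). Without Ter119+ replicate 1, which had the lowest share, the difference fell from 6.52 to 3.86 points from Hbb-b2 and from 7.35 to 4.75 points from HS38. From Slc25a37 it ran from 50.7% to 58.4% in Ter119+ and from 63.9% to 65.0% in CD71+ libraries. With all deposited fragments kept the share was lower in CD71+ by 1.4 to 11.2 points, because the CD71+ files hold no counts inside their zones while the Ter119+ files do.

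Fragments near 0 in 1 group were those with at least 20 counts in the other group and under 5% of its scaled sum over the viewpoints of that chromosome. Chromosome 7 held 28 that were low in CD71+, with 2240 counts in Ter119+ and 31 in CD71+, and 115 that were low in Ter119+, with 3 counts in Ter119+ and 3349 in CD71+. Chromosome 11 held 2 low in Ter119+, and chromosome 14 held 2 low in CD71+ and 1 low in Ter119+. Chromosome 7, which holds the β-globin locus, was therefore the one with the most such fragments as well as the largest differences. All 28 that were low in CD71+ lay within 250 kb of the mean β-globin viewpoint position. Of the 115 low in Ter119+, 8 lay within 250 kb and 64 within 1 Mb. With all fragments near 0 in 1 group left out the locus control region difference was -1.42 from Hbb-b1 and -1.93 from Hbb-b2. Fragments too sparse for the filter stayed in these sums.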

How the data were processed

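NG Capture-C libraries were analysed from the raw counts of unique interactions per viewpoint and DpnII fragment that the authors deposited. Per the methods, the authors trimmed adaptors with Trim Galore, joined read pairs with FLASH, digested reads in silico, aligned them to mm9 with Bowtie and removed duplicates, and all but 1 of 123197 deposited fragments matched the mm9 digest. The methods also describe a custom mm9 that carries mVenus, and which of the builds the CD71+ reads were aligned to was not settled here. Reads without molecular identifiers are not independent molecules. The ± values are standard errors of the edgeR fit or SDs over libraries, and both take in the spread between libraries. Fragments overlapping any CD71+ exclusion zone, or by more than 10 bp any Ter119+ viewpoint zone, were left out of both groups. Counts were summed over regions, distance classes and gene windows and tested in edgeR 4.0.16 (R 4.3.3) by the quasi-likelihood test with the log cis total as offset. Fragments averaging 5 counts or more were tested one by one, for each viewpoint. DESeq2 1.42.0, TMM factors, the total within 1 Mb, other zones and a replicate block were alternatives, and fragments near 0 in 1 group were left out in one added after seeing the data. The fragment script was tested on simulated data. In it, 37% to 68.8% of 2-fold and 80.7% to 95.8% of 4-fold changes were recovered, by viewpoint. False calls made up 0% to 6.33% of calls. The simulation gave all fragments of a viewpoint the same dispersion, which the data need not share. Replicate numbers did not pair the libraries. The members and lists were chosen with earlier results of these data known. Named fragments were the up to 3 with the smallest p in each direction within 1 Mb for each viewpoint; named genes are those of the gene windows or holding a named fragment. Sequences are from mm9 and gene models from GENCODE.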

Additional observations from a re-analysis of the deposited data

How the results depend on the processing

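Main counts were 19 regions higher and 10 lower in CD71+, 15 and 7 distance classes, 31 and 8 gene windows, and 154 and 217 fragments. Scaled to the total within 1 Mb, regions called were 11 higher and 17 lower, and distance classes lower rose to 14. With zones widened, gene windows lower were 5 and fragments higher 93. Fragments higher were 236 with only the own zone left out, 84 by the DESeq2 Wald test, 466 as 5 kb bins and 70 at an adjusted p of 0.01. Fragments lower were 122 at a mean count of at least 20 and 61 as 5 kb bins. The replicate block gave 18 and 10 regions, 14 and 7 distance classes, 29 and 6 gene windows and 120 and 210 fragments, and the same-numbered libraries correlated at -0.15 to 0.18. Leaving out 1 library gave 15 to 21 and 8 to 10 regions, 12 to 16 and 7 to 8 distance classes, 23 to 29 and 6 to 8 gene windows, and 87 to 127 and 171 to 212 fragments, the 87 without Ter119+ replicate 3. With 1 library left out the downstream steps ranged from 0.95 to 1.09 (HS38), 0.66 to 0.89 (R1) and 0.27 to 0.45 (R2).

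Reversals under scaling to the total within 1 Mb were the enhancer cluster (-0.0584) and genes to the sub-TAD end (-0.16) from R2, HS38 under 10 kb (-0.21) and 50 to 250 kb (-0.0976), 10 to 50 kb from R1 (-0.0109) and R2 (-0.13), and Nprl3 from HS38, R1 and R2 (-0.20, -0.0224 and -0.0577). TMM factors turned HS38 50 to 250 kb (-0.0224) and Nprl3 (-0.12). DESeq2 size factors turned HS38 50 to 250 kb (-0.0111), Nprl3 from HS38 (-0.11) and R2 (-0.000172) and the enhancer cluster from R2 (-0.00104), and the DESeq2 Wald test HS38 under 10 kb (-0.12), HS38 50 to 250 kb (-0.011) and Nprl3 from HS38 (-0.11). Widened zones turned the enhancer cluster (-0.0343), under 10 kb (-0.0221) and Nprl3 (-0.023) from R2, and over 1 Mb from Hbb-b1 (-0.0972). With only the own zone left out, where CD71+ files hold 0 in the other zones by construction, HS-38/-39 to the enhancers was -0.71 from R1 and -0.87 from R2, the enhancer cluster from R1 -0.0355, 30 to 130 kb past the adult genes from Hbb-b2 0.26, HS38 under 10 kb -0.11, R1 under 10 kb -0.484 and 50 to 250 kb 0.13, Hbb-b1 10 to 50 kb -0.495, Nprl3 from HS38 and R1 -0.12 and -0.16, Hba-a2 from R1 and R2 0.34 and 0.00737, and the upstream steps -0.73 (R1) and -0.57 (R2). The upstream step from R2 was -0.091 in 10 kb and in 20 kb windows, and its downstream step was 0.18 in 20 kb windows. The cis share difference with all fragments kept was -4.82, -8.15, -1.40, -9.73, -8.00 and -11.2 points for HS38, R1, R2, Hbb-b1, Hbb-b2 and Slc25a37. The Hbb profile correlation of group means was 0.866 in 10 kb bins against 0.748. Where no construction is named, the cause was not tested. Upstream steps could not be computed with widened zones. Depth limits single fragments, whose counts were often under 20 per library.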

Other observations

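Contacts between the globin loci were sparse. The Hbb viewpoints had 3, 7 and 11 interactions over the α-globin sub-TAD in Ter119+ and 5, 2 and 0 in CD71+ libraries, and the α-globin viewpoints had 7, 6 and 10 over the β-globin cluster against 9, 1 and 3, too few for a comparison.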
